A study of Mus musculus with 4 samples.

Results

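The genes described here are 9 that move cholesterol out of cells or answer to the liver X receptors (LXRs): Abca1, Abcg1, Nr1h3, Apoe, Mylip, Npc1, Npc2, Srebf1 and Pltp. They were chosen by symbol among the 32285 genes counted in each library, and all 9 were found and had at least 413 unique molecular identifiers (UMIs) in the quality-passing cells of every library. RNA was counted cell by cell in the SVF (stromal vascular fraction) of brown adipose tissue (BAT) from mice, the cells left when floating adipocytes are removed from digested tissue. The 4 libraries, all labelled C57BL6/J, were from WT animals of 10 weeks, db/db animals of 8 weeks (db/db 8w) and of 16 weeks (db/db 16w), and animals on high-fat diet (HFD) labelled as 10 weeks old. Values for several libraries are given in this order throughout. The db/db genotype is a mutation of the leptin receptor in every cell and leads to obesity and diabetes, whereas the HFD mice carried no mutation. By the study, each library was pooled SVF of 3 mice, the mice were male and the diet was begun at an age of 10 weeks, which leaves the age of the HFD mice unsettled. The study names the db/db strain B6.BKS(D)-Leprdb/J and the WT strain C57BL6/J, so the labels do not settle whether they share a background.

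LXRs are nuclear receptors that bind oxidised cholesterol and, paired with retinoid X receptors on DNA, switch on genes that lower cell cholesterol. Nr1h3 encodes LXR alpha, the form that is abundant in macrophages. Abca1 and Abcg1 are membrane pumps that load cholesterol onto lipid-poor apolipoprotein and onto high-density lipoprotein, Apoe is an apolipoprotein that macrophages secrete and that accepts cholesterol, and Pltp moves phospholipid between lipoproteins. Mylip marks the low-density lipoprotein receptor for degradation and so limits uptake, and Srebf1 encodes a transcription factor that drives fatty acid synthesis. Npc1 and Npc2 hand cholesterol from the lumen of the lysosome to its membrane, the step before export. Macrophages that ingest dying cells or lipoproteins are known to use this system to dispose of the cholesterol they take up.

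The genes lie on 8 chromosomes of the mouse build GRCm38 and all are annotated as protein-coding. Abca1 is at chr4:53030787-53159895 and Srebf1 at chr11:60199089-60222581, both on the minus strand. Abcg1 is at chr17:31057675-31117988 and Mylip at chr13:45389742-45412022, both on the plus strand. The others lie on minus strands, Nr1h3 at chr2:91184061-91202834, Pltp at chr2:164839518-164857711, Apoe at chr7:19696109-19699188 and Npc2 at chr12:84754562-84773152. The RefSeq promoter table (GRCm38.p6) covers 250 bases before to 50 after a transcription start, and sequence was read from it for 7 of the genes. LXR and its partner bind a direct repeat of AGGTCA with a spacer of 4 bases of any kind. A search of both strands, allowing 3 mismatches over the 12 fixed bases, found a match in a promoter of Abca1 and in 1 of 3 promoters of Srebf1. They are shown because no other promoter read here held a match, and the capitals mark the match, which reads as the repeat on the strand opposite to the gene.
Abca1 promoter, chr4:53159846-53160145, minus strand: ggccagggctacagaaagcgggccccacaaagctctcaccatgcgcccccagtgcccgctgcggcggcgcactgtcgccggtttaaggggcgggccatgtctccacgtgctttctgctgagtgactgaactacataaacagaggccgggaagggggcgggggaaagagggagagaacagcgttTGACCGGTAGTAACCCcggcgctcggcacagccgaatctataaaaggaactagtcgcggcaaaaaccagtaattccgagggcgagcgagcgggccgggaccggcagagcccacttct
Srebf1 promoter, chr11:60210422-60210721, minus strand: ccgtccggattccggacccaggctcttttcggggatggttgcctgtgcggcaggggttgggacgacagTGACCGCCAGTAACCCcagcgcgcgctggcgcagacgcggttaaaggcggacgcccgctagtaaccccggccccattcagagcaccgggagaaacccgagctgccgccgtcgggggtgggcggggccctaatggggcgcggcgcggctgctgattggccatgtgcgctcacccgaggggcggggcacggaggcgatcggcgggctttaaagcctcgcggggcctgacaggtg
The matched stretches are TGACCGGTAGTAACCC in Abca1, which begins 67 bases before the start, and TGACCGCCAGTAACCC in Srebf1, which begins 182 bases before it. Each had 9 of the 12 fixed bases. Of all 32851 promoters of this length 21.9% held such a match, so the matches are a description of the letters and not of binding. The promoters of Nr1h3, Apoe, Mylip, Npc2 and Pltp and the other two of Srebf1 held none in these windows.

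Quality limits left 28887 cells, from 31.3% of barcodes in HFD to 89.5% in db/db 16w. Median depth per cell ran from 2733 UMIs in db/db 16w to 6218.5 in WT, and the median mitochondrial share from 0.799% in db/db 16w to 10.5% in HFD. The db/db 16w library stood apart: its Xist, a transcript of female cells, was at 207 CPM, the UMIs of a gene relative to all UMIs of the same cells, against at most 0.688 CPM in the others. Over genes of at least 20 CPM in either library, 22.4% were at least 2-fold higher and 26.0% at least 2-fold lower in its macrophages than in WT. Pairs of libraries shared 16 to 97 barcodes. Cells were assigned to a class by raw UMIs of marker genes. This gave 8510 monocytes and macrophages (Mono/MAC), 12419 stromal cells, 2557 endothelial cells and 202 T and NK cells (T/NK). Within Mono/MAC, lipid-associated macrophages (LAMs; Trem2, Cd9, Spp1, Gpnmb and others) numbered 15, 862, 1575 and 1077 by library, and perivascular-like macrophages (PVMs; Lyve1, Folr2, Cd163, Cbr2 and others) 987, 1405, 277 and 35. The Mono/MAC markers summed to between 5421 and 11545 CPM in Mono/MAC and to between 49.3 and 245 CPM in stromal cells.

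The members fell into groups by cell class. Abcg1, Apoe and Pltp were read mainly in macrophages, Npc1 and Npc2 were higher in macrophages than in stromal cells by a smaller factor, Abca1 and Nr1h3 overlapped between these lineages, and Mylip was highest in endothelial cells. Between Mono/MAC and stromal sums of the 4 libraries, edgeR with the library as a block called 5 members higher and 1 lower in Mono/MAC, where 27.3% and 26.7% of the 13367 genes tested were called higher and lower. The median log2 difference of the members was 1.05, against 0.05 over all genes.

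**Figure D1:**
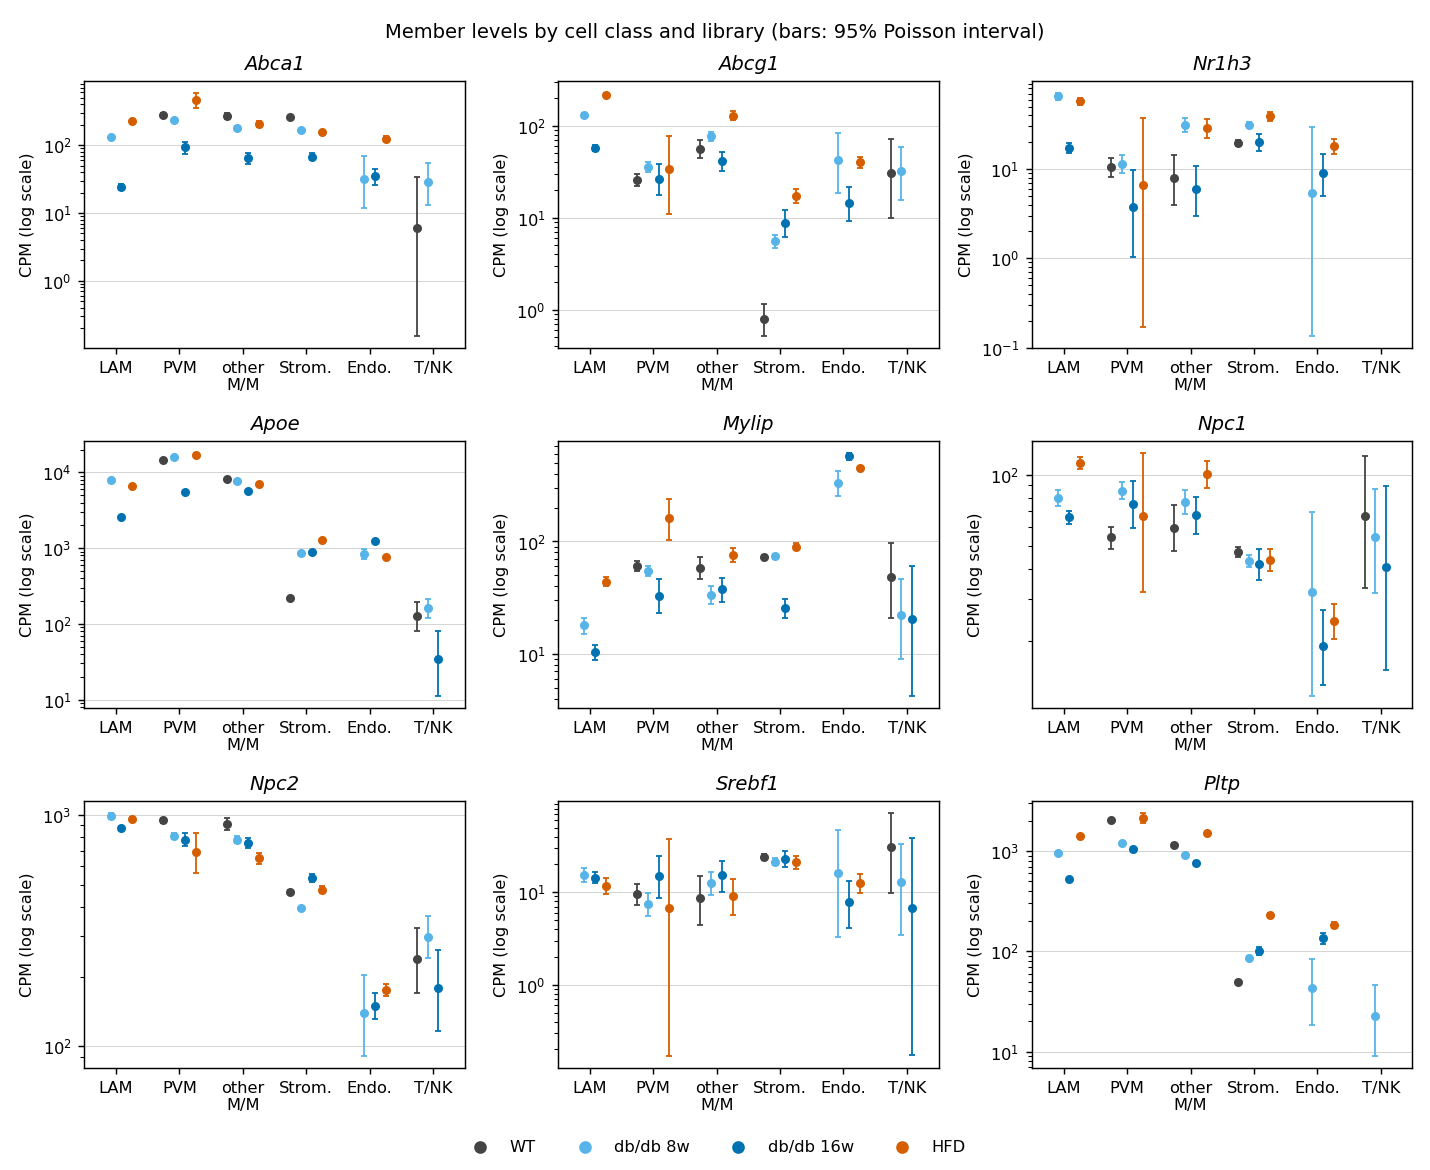
Levels of the 9 genes in CPM (log axis) by cell class, 1 point per library with its exact 95% Poisson interval (WT grey, db/db 8w light blue, db/db 16w dark blue, HFD orange). Sums of fewer than 30 cells or with 0 UMIs are not drawn. The axes differ between panels, and Mylip stands highest in endothelial cells.

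Abcg1 was at 38.8, 84.5, 53.6 and 196 CPM in Mono/MAC, and at 0.785, 5.53, 8.81 and 17.2 CPM in stromal cells in that order. The lowest Mono/MAC level was above the highest stromal level, and the difference was 4.15 ± 0.51 on the log2 scale (SE, 4 libraries; edgeR adjusted p = 0.00139). From 71.7% to 86.8% of the Abcg1 UMIs of a library came from its Mono/MAC cells.

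Pltp, the phospholipid transfer protein, was at 1766, 1020, 579 and 1448 CPM in Mono/MAC of the 4 libraries, and at 50.0, 85.4, 101 and 230 CPM in stromal cells. Every Mono/MAC level exceeded every stromal one (log2 difference 3.72 ± 0.52, SE; edgeR adjusted p = 0.00215). Apoe was at 12731, 10441, 3059.7 and 6813 CPM in Mono/MAC and at 218, 849, 877 and 1293 CPM in stromal cells, again without overlap (log2 difference 3.61 ± 0.76, SE; edgeR adjusted p = 0.00948). The gap was widest in WT, where Mono/MAC cells had the highest and stromal cells the lowest Apoe level of the 4 libraries.

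The lysosomal pair showed smaller differences. Npc2, the soluble protein that binds cholesterol in the lumen, was at 982, 883, 858 and 892 CPM in Mono/MAC and at 465, 394, 535 and 476 CPM in stromal cells (log2 difference 1.23 ± 0.18, SE; edgeR adjusted p = 0.00262). Npc1, its membrane partner (chr18:12189692-12236400, minus strand), was at 55.9, 80.6, 66.7 and 109 CPM in Mono/MAC and at 47.1, 43.3, 42.1 and 43.9 CPM in stromal cells (1.05 ± 0.20, SE; edgeR adjusted p = 0.00696). Neither gene overlapped between the classes, and the stromal levels of Npc1 spanned a narrow range.

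Abca1 did not separate the lineages. It was at 268, 178, 32.6 and 223 CPM in Mono/MAC of the 4 libraries and at 258, 168, 67.4 and 154 CPM in stromal cells, so the lineages overlapped and db/db 16w was the lowest library in both (log2 difference 0.19 ± 0.28, SE; edgeR adjusted p = 0.592). Nr1h3 was at 10.6, 38.3, 15.3 and 51.0 CPM in Mono/MAC and at 19.7, 31.4, 20 and 38.9 CPM in stromal cells (0.14 ± 0.25, SE; edgeR adjusted p = 0.668). In WT and db/db 16w its Mono/MAC level was below the stromal one, and in db/db 8w and HFD above it. The sign of both differences turned when the sums were scaled by total UMIs without TMM (trimmed mean of M values) factors, to -0.09 for Abca1 and -0.14 for Nr1h3. That scaling moved the median of all tested genes from 0.05 to -0.22 and the genes called from 3646 higher and 3564 lower to 2609 and 4532. With TMM the sign also turned without HFD (-0.03 for Abca1 and -0.05 for Nr1h3) and, for Nr1h3, without db/db 8w (-0.04).

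Srebf1 was the member called lower in Mono/MAC. It was at 9.46, 12.1, 14.6 and 11.2 CPM in Mono/MAC and at 23.9, 21.4, 22.9 and 21.1 CPM in stromal cells, without overlap (-0.66 ± 0.18, SE; edgeR adjusted p = 0.0225). The call was lost without WT (adjusted p = 0.0601), db/db 8w (0.0839) or HFD (0.102). Mylip was at 58.1, 33.7, 14.5 and 51.5 CPM in Mono/MAC and at 72.3, 73.7, 25.7 and 90.05 CPM in stromal cells, lower in Mono/MAC in 4 of 4 libraries, and missed the threshold (-0.50 ± 0.18, SE; edgeR adjusted p = 0.0559).

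Endothelial cells had the highest Mylip levels. In the 3 libraries with at least 30 such cells it was at 331 (db/db 8w), 570 (db/db 16w) and 445 CPM (HFD), above all Mono/MAC and stromal levels. Against Mono/MAC of the same library the log2 ratio was 3.29 (95% interval 2.90 to 3.67), 5.30 (5.10 to 5.5) and 3.11 (2.98 to 3.24). In db/db 16w 60.2% of all Mylip UMIs came from endothelial cells, which held 6.31% of all UMIs, and in HFD 48.6%, against 17.2%. In WT and db/db 8w, with 19 and 82 endothelial cells, 79.9% and 65.9% of Mylip UMIs came from stromal cells. Endothelial Npc1 and Npc2 were lower than in Mono/MAC in all 3 libraries, at 19.1 to 32.0 CPM and 139 to 175 CPM. The 82 endothelial cells of db/db 8w also held 913 CPM of the PVM marker list, and its part in their levels was not tested. This comparison was described by counting intervals and was not tested across libraries.

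Within macrophages, LAMs are the subset known for Trem2 and lipid uptake, and PVMs are the resident subset that lines vessels. LAMs had more Nr1h3 and Abcg1 and less Abca1, Mylip and Apoe than PVMs, so the receptor and one pump were higher where the other pump was lower. The test used the 3 libraries with at least 30 cells of both subsets (both db/db ages and HFD), because WT held only 15 LAMs. Of the 9 members edgeR called 4 higher in LAMs and 4 lower, where 18.7% of the 11252 genes tested were called higher and 14.4% lower. The median log2 difference of the members was 0.20, against 0.02 over all genes. The 3 libraries are of different groups, so they are replicates of the subset comparison and of no group, and HFD had 35 PVMs.

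**Figure D2:**
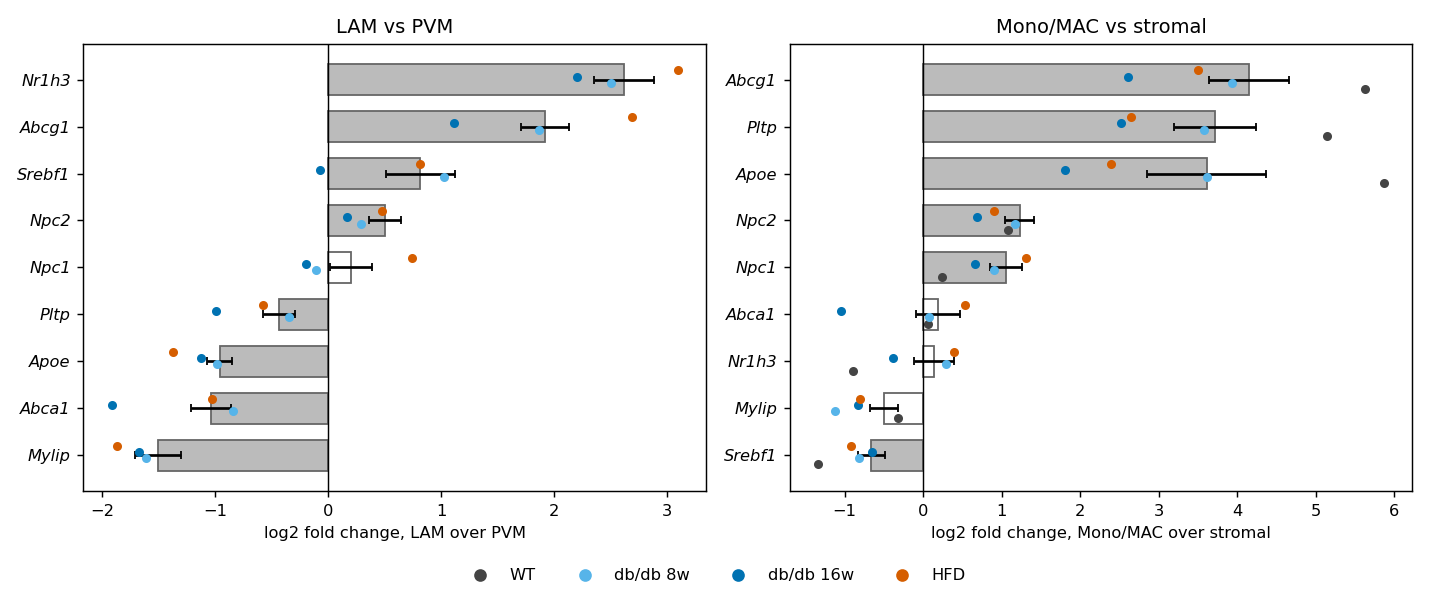
Log2 fold change of each gene between LAMs and PVMs (left) and between Mono/MAC and stromal cells (right). Bars are edgeR estimates with their SE, filled where the adjusted p was under 0.05 and open otherwise. Points are the log2 ratios of CPM within single libraries, without TMM scaling, coloured as named in the key. Nr1h3 and Abcg1 stand highest on the left and Mylip lowest, with every library on the same side of 0.

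Nr1h3 was at 65.1, 17.4 and 57.2 CPM in LAMs of the 3 libraries and at 11.4, 3.78 and 6.68 CPM in PVMs. All 3 LAM levels exceeded all 3 PVM levels, with 4 UMIs in PVMs of db/db 16w and 1 in those of HFD. The log2 difference was 2.62 ± 0.27 (SE; edgeR adjusted p = 8.57e-09). PVMs of WT, outside the test, were at 10.5 CPM.

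Abcg1 was at 130, 57.3 and 216 CPM in LAMs and at 35.7, 26.4 and 33.4 CPM in PVMs in the same order. The groups did not overlap, and the difference was 1.92 ± 0.21 (log2, SE; edgeR adjusted p = 3.70e-08). Its level in WT PVMs was 25.6 CPM, and the 4 PVM levels lay within counting error of each other except those of WT and db/db 8w. The 15 LAMs of WT held 49 Abcg1 UMIs, or 230 CPM (95% interval 170 to 304).

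Abca1 moved the other way, at 130, 24.5 and 226 CPM in LAMs and 234, 92.5 and 461 CPM in PVMs. It was lower in LAMs in every library, although the libraries differed by more than the subsets and the levels overlapped across libraries. The difference was -1.04 ± 0.18 (log2, SE; edgeR adjusted p = 3.72e-05). Srebf1, the other gene with a promoter match above, had a difference of the opposite sign.

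Mylip was at 17.9, 10.4 and 43.9 CPM in LAMs and at 54.8, 33.0 and 160 CPM in PVMs (-1.51 ± 0.21, SE; edgeR adjusted p = 1.59e-06). Within libraries its log2 ratio was -1.61, -1.67 and -1.87, so the 3 libraries gave similar differences at unlike levels. Apoe was at 7973, 2549 and 6655 CPM in LAMs and at 15806.5, 5566 and 17219.6 CPM in PVMs (-0.96 ± 0.11, SE; edgeR adjusted p = 8.66e-08). LAMs thus had less Apoe than PVMs in 3 of 3 libraries while remaining above all stromal levels.

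The other three calls were smaller and rested on the settings. Npc2 was at 994, 877 and 956 CPM in LAMs and 811, 783 and 688 CPM in PVMs, without overlap (0.50 ± 0.14, SE; edgeR adjusted p = 0.00726). It kept the call in 9 of 13 alternatives. The call was lost without db/db 8w (edgeR adjusted p = 0.0654), at a marker purity of 90% (0.104), without TMM (0.204) and without the library block (0.537). Pltp was at 955, 525 and 1426 CPM in LAMs and 1212.5, 1042 and 2124 CPM in PVMs (-0.44 ± 0.14, SE; edgeR adjusted p = 0.0157), and it lost the call in 9 of 13 alternatives, the absence of any 1 library among them (adjusted p from 0.0629 to 0.149). Srebf1 was at 15.2, 14.4 and 11.7 CPM in LAMs and 7.49, 15.1 and 6.68 CPM in PVMs (0.81 ± 0.30, SE; edgeR adjusted p = 0.0395). It lost the call in 9 of 13, including without db/db 8w (adjusted p = 0.779) and without HFD (0.0703). Npc1, at 79.6, 66.0 and 112 CPM in LAMs and 85.6, 75.5 and 66.8 CPM in PVMs, was not called (0.20 ± 0.19, SE; edgeR adjusted p = 0.445).

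Scaling by total UMIs without TMM moved the median of all tested genes from 0.02 to -0.18 and turned 2107 genes called higher and 1621 lower into 1225 and 2240. Nr1h3, Abcg1, Abca1, Apoe, Mylip and Pltp kept their calls under it, Npc2 (adjusted p = 0.204) and Srebf1 (0.163) lost theirs, and no member changed sign. Without the library block edgeR called no member (2 higher and 1 lower at an unadjusted p under 0.05; DESeq2 with the block called 3 and 3), with Abcg1 at adjusted p = 0.0558 and Nr1h3 at 0.0830. LAMs were sequenced deeper per cell than PVMs, with medians of 7319 to 8913.5 UMIs against 3261 to 4325 in the tested libraries, and the part of depth was not tested.

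Some LAMs held transcripts of dividing cells. Of the 1575 LAMs of db/db 16w 603 held at least 2 UMIs of 8 cell cycle genes, against 181 of 862 in db/db 8w and 181 of 1077 in HFD. These LAMs, called cycling here, had less Apoe than the others, at 6956 against 8411 (db/db 8w), 1314 against 3769 (db/db 16w) and 4323 against 7397 CPM (HFD). Abca1 was lower in cycling LAMs in the same 3 libraries, at 111 against 139, 15.7 against 33.2 and 176 against 242 CPM. Cycling LAMs were also deeper, with medians of 12963 against 7665, 11171 against 6786 and 11067 against 6915.5 UMIs, and the part of depth was not tested. Predicted doublets were 56 of the 181 cycling LAMs of HFD and 69 of its 896 others. In db/db 8w they were 4 of 181 and 27 of 681, and in db/db 16w 40 of 603 and 56 of 972. The part of doublets in these levels was not tested. With cycling cells left out of both subsets, the differences between LAMs and PVMs kept 7 of the 8 calls, and Srebf1 lost its own (adjusted p = 0.0704).

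Comparisons of the obese libraries with WT have 1 library a group, so they are given as values with 95% intervals that cover counting error only, and share the WT library. In Mono/MAC as a whole Abcg1 and Nr1h3 were at least 2-fold higher than in WT in db/db 8w and HFD, where 5.67% and 14.5% of genes were past 2-fold higher. In db/db 16w Abca1, Apoe, Mylip and Pltp were at least 2-fold lower, where 26.0% of genes were, and no member was 2-fold higher, against 22.4% of genes. No member was 2-fold lower in db/db 8w or HFD (5.55% and 11.4% of genes). Of the 9 members 8 reached 20 CPM in WT or db/db 8w, 7 in WT or db/db 16w and 8 in WT or HFD. Srebf1 reached it in no Mono/MAC sum.

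**Figure D3:**
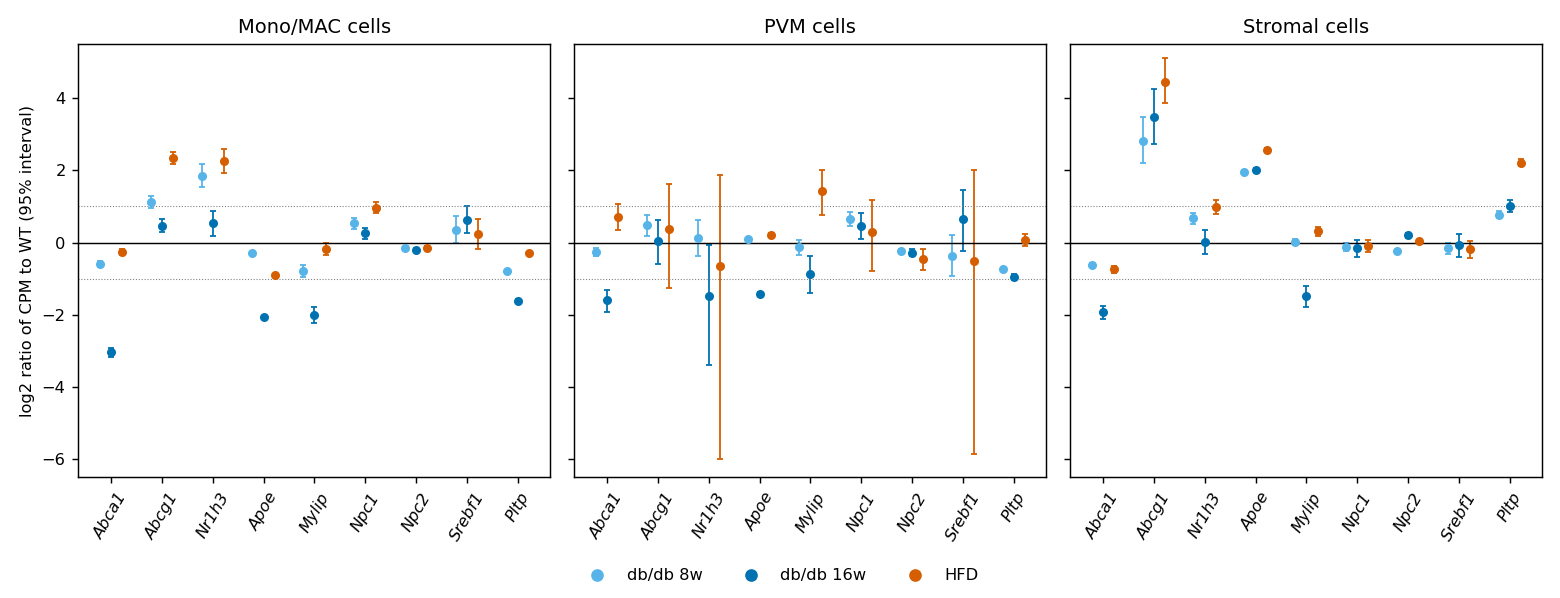
Log2 ratio of CPM to the WT library in Mono/MAC, PVM and stromal cells for the other three libraries, with exact 95% intervals for counting error. Dotted lines mark 2-fold. Abcg1 and Nr1h3 lie above 0 in Mono/MAC of all 3 libraries, the interval of Nr1h3 in PVMs of db/db 8w holds 0, and Apoe lies above 0 in all 3 libraries in stromal cells.

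Nr1h3, at the Mono/MAC levels given above, had log2 ratios to WT of 1.85 (1.53 to 2.18), 0.53 (0.18 to 0.89) and 2.26 (1.94 to 2.59). Abcg1 had ratios of 1.12 (0.95 to 1.30), 0.47 (0.29 to 0.65) and 2.33 (2.17 to 2.50). Both were above WT in all 3 libraries, most in HFD and least in db/db 16w.

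The share of LAMs in Mono/MAC was 1.15% in WT and 26.9%, 65.9% and 66.7% in the others. Those are shares of cells. Every library was then given the subset shares of WT by UMIs, where LAMs held 212833 and PVMs 6356408 of the 8558503 Mono/MAC UMIs. Under these WT subset shares the ratio of Nr1h3 became 0.52 (db/db 8w) and 0.42 (HFD). That of Abcg1 became 0.20 and 0.52, so no point value was past 2-fold. These reweighted values have no intervals. For HFD they drew on 35 PVMs, with 1 UMI of Nr1h3 and 5 of Abcg1, and on 21 monocytes, fewer than 30. The PVM ratios of HFD to WT had intervals of -5.98 to 1.87 for Nr1h3 and -1.26 to 1.63 for Abcg1. The HFD values therefore cannot show whether either gene stayed within 2-fold. In db/db 16w the sign of both turned, to -1.34 for Nr1h3 and -0.49 for Abcg1. The 277 PVMs of that library held 4 UMIs of Nr1h3 and 28 of Abcg1, and its 7 monocytes held 0 of either. In PVMs alone Nr1h3 differed from WT by 0.12 in db/db 8w (-0.37 to 0.61), an interval that holds 0, and Abcg1 by 0.48 (0.18 to 0.77). In these sums more LAMs and more RNA per cell cannot be told apart without the subset values.

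Abca1 had the lowest ratio to WT of the members in Mono/MAC of db/db 16w. Its log2 ratio to WT was -3.04 in Mono/MAC (-3.17 to -2.91), -1.60 in PVMs (-1.91 to -1.31) and -1.94 in stromal cells (-2.11 to -1.77). In LAMs, where no WT sum was large enough, the log2 ratio of db/db 16w to db/db 8w was -2.41 (-2.58 to -2.24). The low level was therefore measured in macrophages and stromal cells alike. For db/db 8w and for HFD, ratios in Mono/MAC were -0.59 (-0.67 to -0.51) and -0.26 (-0.34 to -0.18), and the stromal ratios -0.61 (-0.67 to -0.56) and -0.74 (-0.83 to -0.66). In PVMs the ratio was -0.26 (-0.36 to -0.16) in db/db 8w and, with the opposite sign, 0.71 (0.35 to 1.06) in HFD. With WT subset shares the Mono/MAC ratio of Abca1 was -0.27 in db/db 8w and -1.75 in db/db 16w and turned to 0.52 in HFD.

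Apoe was below WT in Mono/MAC of all 3 libraries, at log2 ratios of -0.29 (-0.30 to -0.28), -2.06 (-2.07 to -2.04) and -0.90 (-0.92 to -0.89). In PVMs it was 0.09 (0.08 to 0.11) above WT in db/db 8w and 0.22 (0.16 to 0.27) in HFD, and in db/db 16w its ratio was -1.41 (-1.45 to -1.37). With WT subset shares the Mono/MAC ratio became 0.06 in db/db 8w, 0.16 in HFD and -1.28 in db/db 16w, so that the sign held in db/db 16w alone.

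Pltp and Mylip in Mono/MAC were also lowest in db/db 16w. The Pltp log2 ratios to WT were -0.79, -1.61 and -0.29, and those of Mylip -0.78, -2.001 and -0.17. Mylip in stromal cells was at 0.03, -1.49 and 0.32 on the same scale. PVMs of HFD had more Mylip than those of WT (160 against 60.1 CPM, log2 ratio 1.42, 0.76 to 2.01), from 24 UMIs in 35 cells. With WT subset shares the HFD ratio in Mono/MAC turned to 1.22 for Mylip, past 2-fold, and to 0.12 for Pltp, and in db/db 16w both were within 2-fold of WT, at -0.91 and -0.94.

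The lysosomal pair and Srebf1 varied less. Npc2 in Mono/MAC stayed between -0.19 and -0.14 on the log2 scale against WT in the 3 libraries. Npc1 was above WT in all of them, by 0.53 (0.38 to 0.68), 0.26 (0.10 to 0.41) and 0.96 (0.81 to 1.12), while its stromal ratios lay between -0.16 and -0.10. Srebf1 was above WT in Mono/MAC of db/db 16w by 0.62 (0.26 to 1.0), and the intervals of db/db 8w and HFD held 0.

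Stromal cells of obese mice had more Apoe, Abcg1 and Pltp than those of WT. The log2 ratios to WT of Apoe were 1.96 (1.93 to 2.002), 2.01 (1.95 to 2.07) and 2.57 (2.53 to 2.61), where 3.68%, 13.1% and 9.15% of genes were at least 2-fold higher. Abcg1 had 27 UMIs in 4177 stromal cells of WT, and its ratios were 2.82 (2.22 to 3.46), 3.49 (2.73 to 4.26) and 4.46 (3.85 to 5.11). Pltp had ratios of 0.77, 1.02 and 2.21 in that order.

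Macrophage markers moved with these stromal values in part. The Mono/MAC list in stromal cells summed to 78.2, 144, 49.3 and 245 CPM, below WT in db/db 16w. Stromal Apoe, Abcg1 and Pltp were above WT in that library. The list cannot gauge macrophage RNA in stromal cells, because the gate itself limits the UMIs of the list in them. In Mono/MAC the list was at 11545, 7991, 5421 and 8030 CPM, so its level in macrophages was also lowest in db/db 16w. T/NK cells, which should lack Apoe, held it at 128, 160, 34.2 and 311 CPM in the same order, below the stromal level in every library. They held Pltp at 0, 22.4, 0 and 98.3 CPM, again below the stromal level in all. Only 22 T/NK cells stood behind the HFD values. The gate limits UMIs of the Mono/MAC list in T/NK cells too, so their levels cannot gauge macrophage RNA in stromal cells either. The part of free RNA and of macrophage RNA in the stromal values was not tested. Sums of brown adipocyte markers in Mono/MAC ran from 1.86 CPM in db/db 16w to 73.8 in HFD.

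The share of Mono/MAC cells with a UMI, after each was thinned to 1000 UMIs to make depths alike, is given for 3 members beside cells of another lineage. Abca1 was seen in 21.4% (19.2% to 23.7%), 15.8%, 4.21% (3.43% to 5.11%) and 18.7% of the cells by library, against 0% to 3.53% of T/NK cells, and lay above the interval of the T/NK share in every library but db/db 16w. Abcg1 was seen in 2.89% (2.04% to 3.96%), 5.90%, 4.82% and 16.8% (15.05% to 18.8%), above the 0.0730%, 0.510%, 0.878% and 1.08% of stromal cells, whose highest upper limit was 1.75%. T/NK cells are no background for Abcg1, since those of WT held 30.5 CPM of it (9.90 to 71.2) against 0.785 CPM in stromal cells. Apoe was seen in 95.6%, 88.0%, 66.1% and 78.9%, against 1.89% to 20% of T/NK cells. Unthinned, the Abca1 shares were 62.6%, 43.2%, 16.9% and 57.2%. Median depths before thinning were 4845 to 5934 UMIs in Mono/MAC and 1789 to 4992.5 in T/NK cells, which numbered 22 to 87. Median depths in stromal cells were 2842 to 7112 UMIs. After thinning, 0 of 22 T/NK cells of HFD showed Abca1 and 0 of 53 of db/db 16w, which by 3 counts of the total allows shares of up to 13.6% and 5.66%, and before thinning 1 of the 22 did.

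Other genes of cholesterol handling, listed by function, were read in the comparison of LAMs with PVMs. Of all genes tested there, 18.7% were called higher in LAMs and 14.4% lower. The SREBP2 targets, the enzymes of cholesterol synthesis and the low-density lipoprotein receptor that cells raise when sterol is low, were called higher in LAMs for 12 of 16 genes and lower for 0, with a median log2 difference of 1.24 against 0.02 over all genes. Among them Sqle, the squalene epoxidase, was at 23.1, 21.3 and 10.1 CPM in LAMs and at 1.61, 3.78 and 0 CPM in PVMs. Fdps, which makes farnesyl pyrophosphate, was higher by 2.92 ± 0.26 (log2, SE) and Fdft1, the squalene synthase, by 2.41 ± 0.46. The highest level of any of the 16 genes in these sums was 79.7 CPM (Fdps, LAMs of db/db 16w). No SREBP2 target was lower at an unadjusted p under 0.05 or by DESeq2 either, which called 9 higher.

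**Figure D4:**
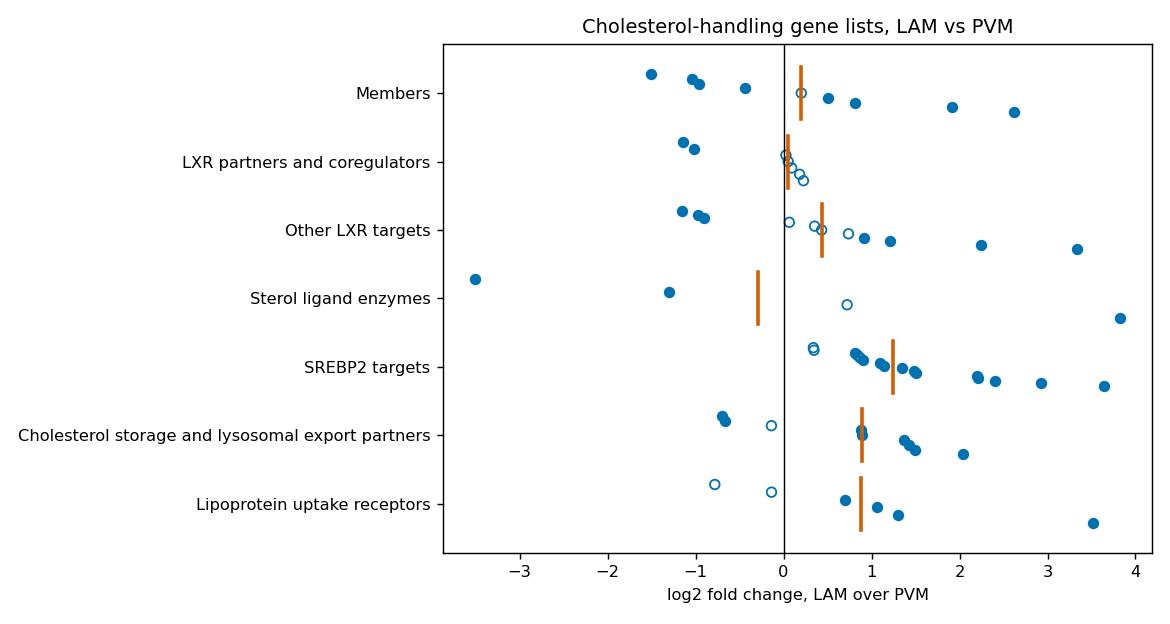
Log2 fold change between LAMs and PVMs of the 9 members and of 6 lists of related genes. Each point is a gene, filled where the edgeR adjusted p was under 0.05 and open otherwise, and the orange bar is the median of a list. All 16 SREBP2 targets lie above 0, and the members lie on both sides of it.

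Genes of storage and lysosomal export were called higher for 6 of 9 and lower for 2 (median 0.89). Lipa, the lysosomal acid lipase that frees cholesterol from ingested esters, was at 838, 613 and 1359 CPM in LAMs and 184, 198 and 428 CPM in PVMs (2.04 ± 0.16, SE; edgeR adjusted p = 5.71e-11). Nceh1, which hydrolyses stored cholesteryl ester, was higher by 1.497 ± 0.18 and Tmem97, which binds Npc1, by 1.43 ± 0.28. Uptake receptors were called higher for 4 of 6 and lower for 0 (median 0.88): Olr1 by 3.51 ± 0.42, Cd36 by 1.30 ± 0.13 and Lrp1 by 1.06 ± 0.17 on the log2 scale. Olr1 was at 51.9, 2.29 and 9.55 CPM in LAMs and at 4.26, 0 and 13.4 CPM in PVMs, so its HFD levels had the opposite order. The study lists Lipa, Cd36 and Lpl, described below, among genes whose high expression marks LAMs, so their direction was known beforehand.

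Other LXR targets were split like the members, with 4 called higher and 3 lower of 11 tested (median 0.43, Apoc4 not tested). Lpl, the lipoprotein lipase, was at 3978, 3162 and 4215 CPM in LAMs and 318, 250 and 1055 CPM in PVMs (3.34 ± 0.22, SE; edgeR adjusted p = 3.09e-12). Lpcat3, which builds polyunsaturated phospholipid, was higher by 1.21 ± 0.26, and Scd2, a fatty acid desaturase, by 2.24 ± 0.56. Scd2 was at 7.33, 6.53 and 7.45 CPM in LAMs and at 1.61, 0 and 13.4 CPM in PVMs, with HFD again the other way. Of 7 partners and coregulators of LXR none was called higher and 2 lower (median 0.05): Rxra, the retinoid partner, at -1.14 ± 0.25 and Ncoa1, a coactivator, at -1.02 ± 0.19.

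Of 4 enzymes that make or turn over sterol ligands 1 was called higher and 2 lower (median -0.29, Cyp7b1 not tested). Ch25h and Cyp27a1, which make hydroxycholesterols, were lower, at -3.50 ± 0.67 and -1.30 ± 0.23 (log2, SE). Ch25h was at 0.202 to 0.582 CPM in LAMs and at 3.78 to 6.68 CPM in PVMs. With cycling cells left out the SREBP2 targets had 11 calls higher, and the counts of the other 5 lists did not move. The counts of 0 for lower receptors and for higher LXR partners were also 0 at an unadjusted p under 0.05 and by DESeq2.

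Between Mono/MAC and stromal cells 27.3% of all genes tested were called higher and 26.7% lower. The same lists gave 4 of 16 SREBP2 targets higher and 0 lower (median 0.57) and 7 of 9 storage genes higher and 0 lower (1.83). Of the receptors 4 of 6 were higher and 2 lower (2.97). Of the other LXR targets 4 of 11 were higher and 3 lower (-0.13), of the partners 1 of 7 higher and 0 lower (0.17), and of the ligand enzymes 0 of 5 higher and 1 lower (-0.81), against 0.05 over all genes. Every count of 0 among these was 0 at an unadjusted p under 0.05 and by DESeq2 as well. Nceh1 was higher in Mono/MAC by 3.59 ± 0.34, Gramd1b, which carries cholesterol from the plasma membrane, by 3.15 ± 0.18 and Lipa by 2.74 ± 0.28 (log2, SE). Msr1, the scavenger receptor, was higher by 5.94 ± 0.66 and Olr1 by 3.40 ± 0.73, and Vldlr, a receptor for triglyceride-rich lipoproteins, was lower, at -5.60 ± 0.64. Among LXR targets Apoc2 was higher by 5.38 ± 0.62, Arl4c by 3.41 ± 0.55 and Mertk, the receptor for dying cells, by 3.22 ± 0.75. Cyp7b1, which inactivates hydroxycholesterols, was lower, at -5.59 ± 0.76, Ncoa1 higher by 0.64 ± 0.22, and among SREBP2 targets Mvd and Msmo1 were higher by 1.26 ± 0.26 and 1.08 ± 0.17.

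Across the 26 sums of a class in a library with at least 30 cells, the members shared patterns to different degrees. These correlations are descriptions, since sums of one library share its animals, depth and free RNA. Pearson's r of log2(CPM + 1) was 0.93 between Apoe and Pltp, 0.80 between Abca1 and Pltp and 0.78 between Abca1 and Apoe, and 0.28 between the pumps Abca1 and Abcg1. Nr1h3 had r = 0.32 with Abcg1 and 0.53 with Abca1. Mylip had negative values with Npc2 (-0.52) and Npc1 (-0.36).

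Among 6907 other genes those most like Abca1 included Agtrap (0.90) and Hacd4 (0.89), and the most like Pltp were Man1c1 (0.94), Hacd4 (0.92) and Renbp (0.92). Genes nearest to Apoe included Selenop (0.93) and Ms4a7 (0.92), of which Ms4a7 was also a marker used to gate Mono/MAC. Abcg1 was nearest to Stap1 (0.85), Specc1 (0.83) and Glipr1 (0.83), and Nr1h3 to Slc6a8 (0.88), Cd63 (0.84) and Rassf8 (0.83). Mylip was nearest to Ushbp1 (0.86), Efnb1 (0.86) and Etl4 (0.86), Npc1 to Akr1b3 (0.86), Dmac1 (0.82) and Tmem37 (0.80), and Npc2 to Spg21 (0.90), Rap2b (0.89) and P2rx4 (0.88). Srebf1 had the weakest likenesses, Hnrnpll (0.74), Dnajc25 (0.71) and Camk2d (0.70), at low counts throughout.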

How the data were processed

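The authors deposited raw UMI counts for each gene and barcode, made with 10x Genomics libraries and Cell Ranger on mm10 (6.0.0 in the file headers, 7.1.0 in the submitters' processing notes). They held called barcodes before quality filters. Libraries held 28504069 to 61828295 counts.

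The members and lists were chosen with earlier results of these data known. Cells had to have more than 250 but fewer than 6000 genes, 500 to 30000 UMIs (both ends left out) and less than 15% of UMIs from mitochondrial genes. A lineage needed at least 3 UMIs from at least 2 of its markers and 75% of all lineage-marker UMIs, and a subset 67% of subset-marker UMIs. Predicted doublets (Scrublet in scanpy 1.11.5, 325 to 1793 cells a library) were kept, and removed in an alternative. The Lepr UMIs (1 to 25 a library) were too few to check the db/db label, and a UMI of the 3′ tag need not cover the mutation.

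CPM is the UMIs of a gene over all UMIs of a class. Sums per library and class were tested with edgeR 4.0.16 (filterByExpr, TMM, quasi-likelihood, library as block, gate markers left out, Benjamini-Hochberg over all genes, threshold 0.05) in R 4.3.3. A check on simulated counts held dispersion fixed and changed far fewer genes than were called here, so it cannot gauge the error rates. The SE given with an edgeR log2 difference was its absolute value over the square root of the F statistic of the test. It restates that test and is no spread measured over the libraries. Free RNA was not removed. The alternatives were DESeq2 1.42.0, no filter, no block, no TMM, each library left out, purity of 90% or 50%, no mitochondrial limit, doublets removed, at least 10 cells (adding WT) and cycling cells left out, of which the last pair and that without TMM were chosen after seeing the data. Ratios had exact conditional binomial intervals, sums exact Poisson and shares exact (Clopper-Pearson) intervals, all at 95%. A count of 0 allowed 3 counts. Named were all members, per list and comparison the 3 called genes with the largest absolute log2 change, and per member the 3 genes with the highest r at 50 CPM or more in a sum. A few genes that this rule names are not reported here. The promoter of Npc1 was not read, and Abcg1 had no entry in the table. Coordinates are from GENCODE M21.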

Additional observations from a re-analysis of the deposited data

How the results depend on the processing

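In LAMs against PVMs Nr1h3, Abcg1, Abca1, Apoe and Mylip kept their call in 12 of 13 alternatives and all members their direction in 13 of 13. Without the library block 0 members were called higher and 0 lower by edgeR, against 2 and 1 at an unadjusted p under 0.05 and 3 and 3 by DESeq2 with the block. At a purity of 90%, which left 2 libraries, 2 were called higher, as when all sums were scaled without TMM. Leaving out a library gave 2 to 4 members higher and 3 lower. In Mono/MAC against stromal cells the 5 higher calls held in 12 of 12 alternatives, and the lower calls were 2 with DESeq2, 2 at a purity of 50%, 2 without TMM and 0 to 1 when a library was left out (0 without db/db 8w, where 1 had an unadjusted p under 0.05, and 0 without HFD, where 0 had). Against WT, the 2 members higher in db/db 8w became 1 as a mean over cells and 0 with the subset shares of WT. With those shares HFD had 1 member higher, Mylip, in place of Abcg1 and Nr1h3. Its 35 PVMs held 24, 5 and 1 UMIs of these genes in that order. The 4 members lower in db/db 16w became 3 under these shares, namely Abca1, Apoe and Nr1h3, the last with 4 UMIs in the 277 PVMs. Of members whose share of cells lay above that of WT in db/db 16w (1), 0 were left at a purity of 90% and 0 at 50%, and 2 without a mitochondrial limit, and of those below it in HFD (2), 1 was left with doublets removed. Over all genes LAMs against PVMs gave 2107 higher and 1621 lower, 1229 and 961 with DESeq2, 107 and 117 without the block, 1225 and 2240 without TMM, 830 and 596 without db/db 8w and 1336 and 1098 without db/db 16w. Mono/MAC against stromal cells gave 3646 and 3564, and 2031 and 2363 without db/db 8w. Both tests were paired by library, and the labels give groups no shared replicate numbers. The causes were not tested.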
